A study of Mus musculus with 6 samples.

Results

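Olfactory receptor genes were examined on 6 arrays of mouse pro-B cells, the bone marrow B cell precursors sorted here as B220+CD43+IgM- cells. The set comprised every gene whose probe set carried exactly 1 symbol of the form Olfr followed by a number, with pseudogenes left out, which gave 39 genes of the 17097 genes with a symbol of their own. They were read from 42 probe sets, and Olfr66, Olfr69 and Olfr701 were each represented by the brighter of their probe sets. The reference gene table lists 1107 protein-coding Olfr genes, so the array named a small part of the family. Wild-type cells were hybridised to 3 arrays and cells labelled HDAC7 deficient to another 3, each a biological replicate by its label, with the deficient cells taken from conditional mice. The sources used here do not give the Cre driver, the allele, the age or the sex of the mice. RNA was amplified by a whole-transcriptome PCR kit before labelling, and the deposited values are on a log2 scale.

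Olfactory receptors are G protein-coupled receptors that bind odorants in the cilia of olfactory sensory neurons. Each mature neuron expresses a single receptor allele, while the other receptor genes stay packed in heterochromatin, and bound receptors signal through Gnal, Adcy3 and a cyclic nucleotide-gated channel. The genes lie in clusters, and most have an intronless coding region. Some receptors have been found in tissues outside the nose. HDAC7 is a class IIa histone deacetylase of early B cells, and the series title names the silencing of genes that belong to other lineages as the subject of the study. Olfactory receptors are genes of such a lineage.

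The arrays differed in ways that the genotype labels do not give. The correlation of wild-type replicate 3 with the other 5 arrays was 0.70 to 0.82, and its values had an interquartile range of 1.72, where those of the rest had 2.27 to 2.93. On that array the 3' probe set of Actb exceeded the middle one by 1.69, and on the rest by 0.16 to 0.26. Xist divided the arrays across genotypes: wild-type replicate 3 (8.51) and the deficient replicates 2 and 3 (11.40 and 11.27) are called Xist-high arrays here, and the other 3 (4.87 to 5.38) Xist-low arrays. The 6 arrays read 9.06, 9.48 and 7.31 for Hdac7 in wild-type cells and 9.95, 9.54 and 9.27 in cells labelled HDAC7 deficient. Its difference was +0.97 ± 0.59 (SE), with a limma adjusted p of 0.399, so the targeted transcript was not lower under the deficient label. The sources used here do not say where its probes lie relative to a deleted part, and all directions below follow the labels. Of 16 pro-B markers 13 were measured, and all 13 lay above the highest antigenomic control (described next) on all 6 arrays. Their median was 8.34 to 10.40 on the wild-type arrays and 9.84 to 10.47 on the others, and their median difference turned from 0.13 to -0.26 without wild-type replicate 3, to -0.06 after quantile normalization and to -0.05 after antigenomic centring.

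Receptor signal was low. The array carries 23 antigenomic control probe sets, made of probes that match no mouse sequence and grouped by how many of their bases, 3 to 25, are G or C. Their median, the antigenomic level, was 3.75, 3.89 and 3.70 on the wild-type arrays and 3.90, 3.99 and 3.98 on the HDAC7-deficient arrays. The receptor median was 5.19, 4.74 and 6.40 in wild type and 4.41, 4.54 and 4.91 in HDAC7 deficient. It thus lay 1.44, 0.85 and 2.70 above the antigenomic level on the wild-type arrays and 0.51, 0.55 and 0.93 above it on the others. A perfect-match probe set is brightened by its own G and C content, and the content of the receptor probes is unknown here. Levels of different receptors are therefore not ranked against each other below.

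Above the antigenomic level on all 6 arrays were 33 of the 39 receptors, where 95.6% of all genes were. The other 6 were at or below it on at least 1 array: Olfr74 (by as much as -0.30), Olfr315 (-0.20), Olfr749 (-0.12), Olfr480 (-0.04), Olfr67 (-0.03) and Olfr64 (-0.01). Set against the brightest antigenomic control of each array, none of the 39 was above it on all 6 arrays, where 42.5% of all genes were. By array the count was 10, 0 and 36 in wild type and 0, 0 and 3 in HDAC7 deficient. Of all genes 61.6%, 43.7% and 92.2% were above it on the wild-type arrays and 47.7%, 50.1% and 60.5% on the others. Wild-type replicate 3 was thus the only array on which most receptors exceeded every antigenomic control, and 92.2% of all genes did so there. On that array the brightest control was itself at 4.81, against 5.81 to 6.81 on the other 5.

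**Figure D1:**
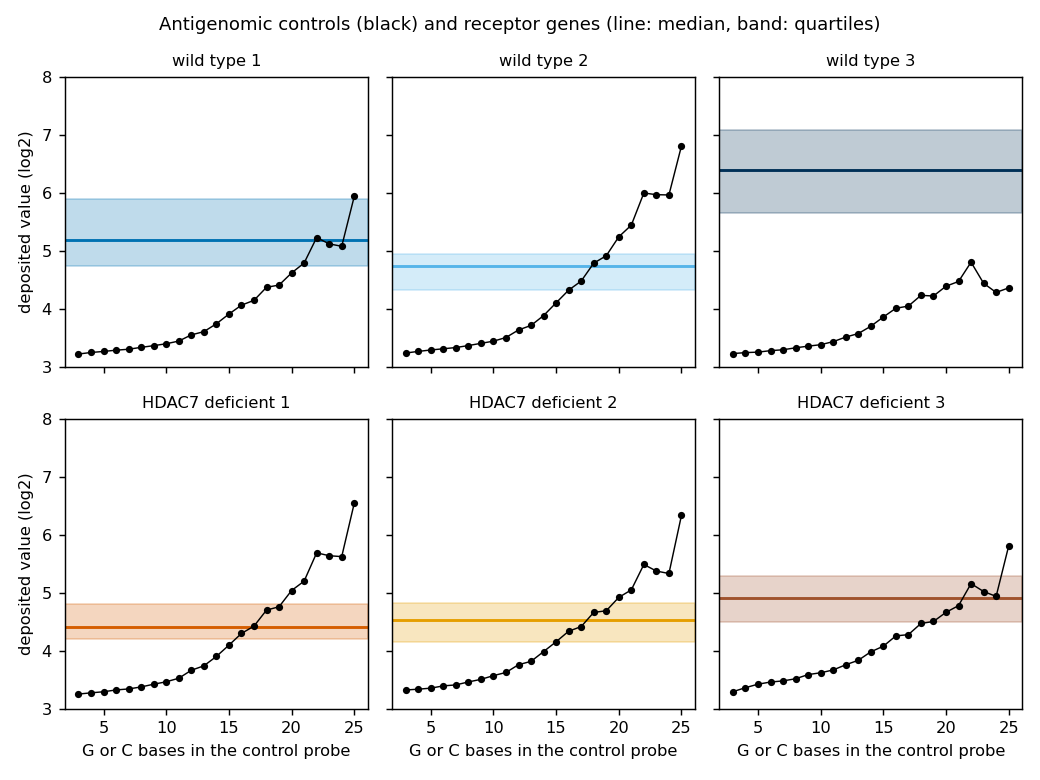
Deposited log2 value of the antigenomic controls (black points, vertical axis) by their number of G or C bases (horizontal axis), 1 panel per array, with the median (line) and quartiles (band) of the 39 receptor genes. The receptor median of 6.40 on wild-type replicate 3 lies above all controls of that array, while on the other 5 arrays it falls among the brighter controls.

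Every receptor had a lower mean in the cells labelled HDAC7 deficient than in wild type, by 0.67 on the log2 scale at the median (a difference of -0.67, range -1.81 for Olfr480 to -0.14 for Olfr1507). Of all 17097 genes 52.0% had a lower mean, and the all-gene median difference was -0.03. No receptor passed an adjusted p of 0.05 in limma with Benjamini-Hochberg adjustment over all genes, and neither did any other gene (0.0%). The lowest adjusted p of a receptor was 0.377. At an unadjusted p under 0.05, 5 receptors were lower, or 12.8%, against 9.14% of all genes, and none was higher, against 3.52%. All 3 HDAC7-deficient values lay below all 3 wild-type values for 6 receptors, or 15.4%, against 16.8% of all genes, and the reverse held for 0 receptors and 9.45% of genes. With 3 arrays against 3, an exact permutation test of a single gene cannot go below 0.1.

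Markers of other blood cells that the sorted fraction could hold had median differences that were mostly above 0, where the receptors' was below it. All 4 measured of 6 plasmacytoid dendritic cell markers were higher in HDAC7 deficient under each scaling tried and without wild-type replicate 3. Their median was 6.94 to 8.42 on the wild-type arrays and 8.13 to 9.53 on the others, and their median difference was 1.56, or 1.02 without wild-type replicate 3. The median differences were 0.64 for 6 neutrophil, 0.21 for 6 macrophage, 0.50 for 5 natural killer and 0.45 for 5 T cell markers. They were 0.29, 0.24, -0.16 and 0.30 without wild-type replicate 3, and the macrophage median was 0.03 after antigenomic centring. The 3 measured of 5 erythroid markers had a median difference of -0.08, or 0.04 without that array and 0.06 after median centring. Most of these markers are among the brighter genes. All genes in the highest quartile of mean expression had a median difference of 0.56, with 10.4% lower, and those in the next quartile 0.25. Without wild-type replicate 3 these medians were 0.06 and 0.08. None of these markers passed an adjusted p of 0.05 in limma, and their part in the receptors' difference was not tested.

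**Figure D2:**
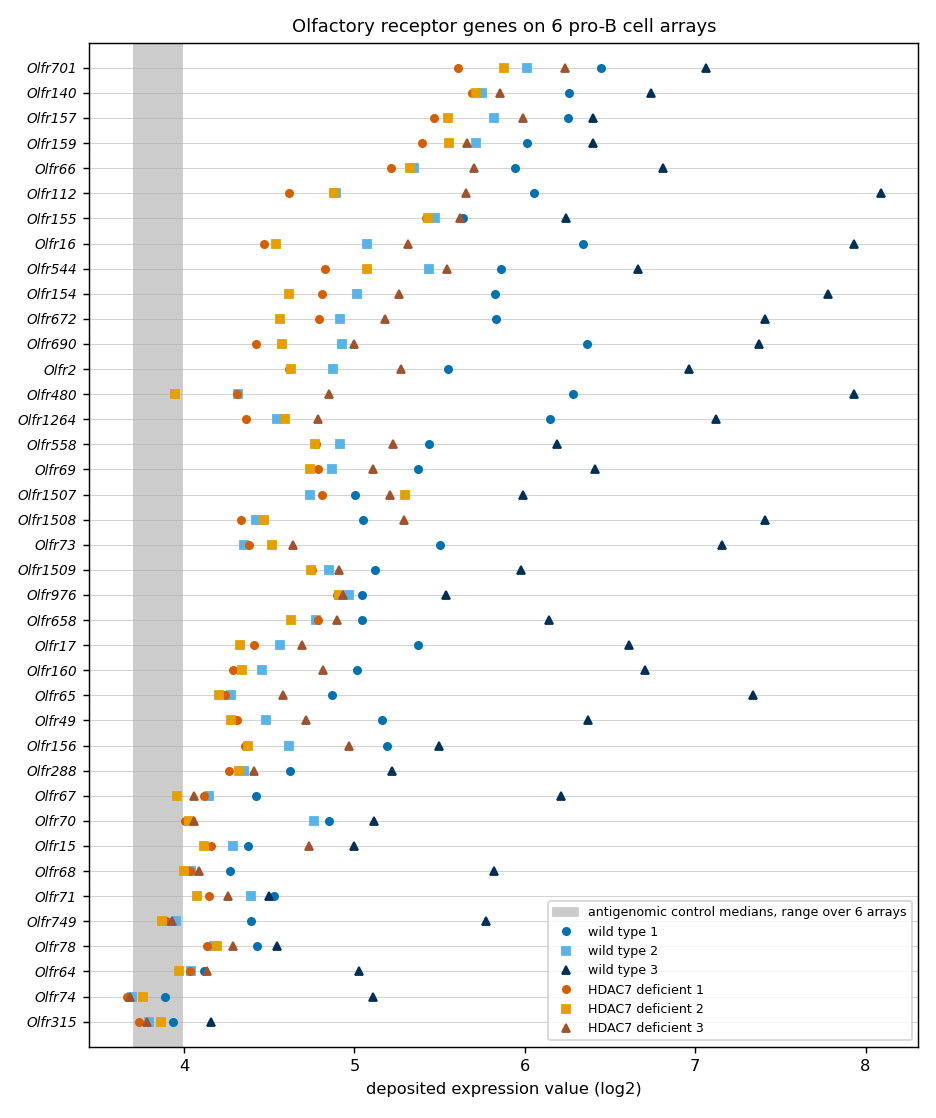
Deposited log2 value (horizontal axis) of each of the 39 receptor genes (rows, ordered by mean) on the 3 wild-type arrays (blue) and the 3 HDAC7-deficient arrays (orange and brown), with the range of the antigenomic level over the 6 arrays in grey. Wild-type replicate 3 is the rightmost point for 38 of the 39 genes.

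The order of the arrays was nearly the same for every receptor. Wild-type replicate 3 was the highest array for 38 receptors, and Olfr71, with wild-type replicate 1 on top, was the exception. Wild-type replicate 1 was the second highest array for 34. It was above all 3 HDAC7-deficient arrays for 35 receptors. Wild-type replicate 2 was above all 3 for only 6 and lay inside or below their range for 33. HDAC7-deficient replicate 1 was the lowest array for 21 receptors, HDAC7-deficient replicate 2 for 16 and wild-type replicate 2 for the other 2. The spread among wild-type arrays was wider than among HDAC7-deficient arrays for 38 of 39 receptors. The median of all genes in the lowest quartile of mean expression was also highest on wild-type replicate 3 (5.24). On wild-type replicate 1 that median was second highest (4.78), and on HDAC7-deficient replicate 1 it was lowest (4.48).

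Without wild-type replicate 3 the median difference of the receptors was -0.26, with an all-gene median of -0.05. Then 37 receptors were lower, against 56.8% of genes, while Olfr15 (0.01) and Olfr1507 (0.23) were higher. At an unadjusted p under 0.05, 4 were lower (Olfr70, Olfr690, Olfr71 and Olfr16), or 10.3%, against 8.84% of genes. The groups did not overlap for 6, against 19.0% of genes. The lowest adjusted p was 0.0791, for Olfr70. Leaving out this array moved the difference of 36 of the 39 receptors by over 1.5 times, and Olfr70, Olfr71 and Olfr157 were the other 3. With the Xist division as a block 32 receptors were lower at that level, against 27.0% of genes, and no receptor passed an adjusted p of 0.05. Wild-type replicate 3 is the only Xist-high wild-type array, so the effect of the block cannot be told apart from that array. The median difference with that block was -0.91, or -0.40 with wild-type replicate 3 also left out. The latter value rests on HDAC7-deficient replicate 1 alone among the deficient arrays. The count at an unadjusted p under 0.05 also moved with other arrays: it was 31 without wild-type replicate 2, where 23.3% of genes were lower at that level, and 1 without wild-type replicate 1 (4.08%), HDAC7-deficient replicate 1 (3.16%) or HDAC7-deficient replicate 2 (2.67%).

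**Figure D3:**
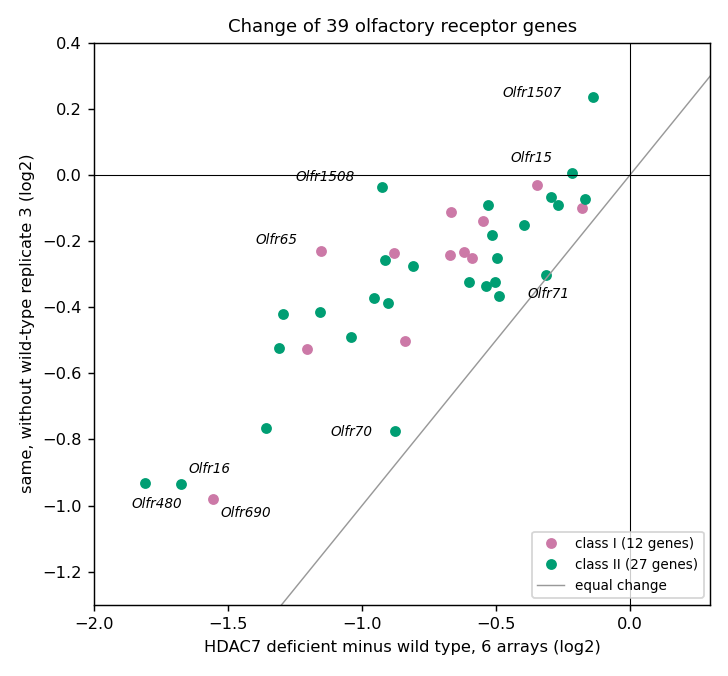
Difference of each receptor gene, HDAC7 deficient minus wild type (log2), over all 6 arrays (horizontal axis) and without wild-type replicate 3 (vertical axis), coloured by receptor class, with a grey line of equal change. Most points lie above the line, nearer to 0 without that array; Olfr70 (-0.88 and -0.77) and Olfr71 (-0.31 and -0.30) lie close to it.

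The receptors sat among the dimmer genes, whose median difference had the same sign. By mean over the 6 arrays 27 receptors were in the lowest quartile of genes (quartile 1), 12 in quartile 2 and none above. The median difference of all genes was -0.30 in quartile 1, where 86.4% were lower, and -0.38 in quartile 2, where 77.1% were lower. It was 0.25 and 0.56 in quartiles 3 and 4. Receptors had medians of -0.67 in quartile 1 and -0.73 in quartile 2, and 33 of the 39 lay below the median of their quartile. Without wild-type replicate 3 the receptor medians were -0.24 and -0.39, beside -0.11 and -0.18 for all genes of the same quartiles.

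Across arrays, the receptor median ran opposite to the interquartile range of the array's probe set values. From wild-type replicates 1 to 3 the interquartile range was 2.27, 2.68 and 1.72, and in the HDAC7-deficient arrays 2.93, 2.87 and 2.59. The array with the narrower range had the higher receptor median at every step of the order, within each genotype and within the Xist-low and the Xist-high arrays too. Pearson's r over the 6 arrays was -0.99 (exact permutation p = 0.00278, two-sided) and Spearman's rho was -1.0 (p = 0.00278, exact and two-sided). Without the arrays farthest from the median range, wild-type replicates 3 and 1, r was -0.99 over the 4 left. This was the only relation of that kind computed, it was not among the tests laid down in the design, and its p-values were not adjusted. The median of all genes in quartile 1 followed the same order of arrays. It was 4.78, 4.595 and 5.24 in wild type and 4.48, 4.50 and 4.63 in HDAC7 deficient. The order is thus not particular to the receptors, and these p-values do not set them apart from other dim genes. The permutation also exchanged arrays across the genotypes. Both measures come from the same values, and dim genes such as the receptors also set the lower end of the interquartile range. The p-values are therefore given as a description. The part of the interquartile range in the receptors' difference was not tested.

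**Figure D4:**
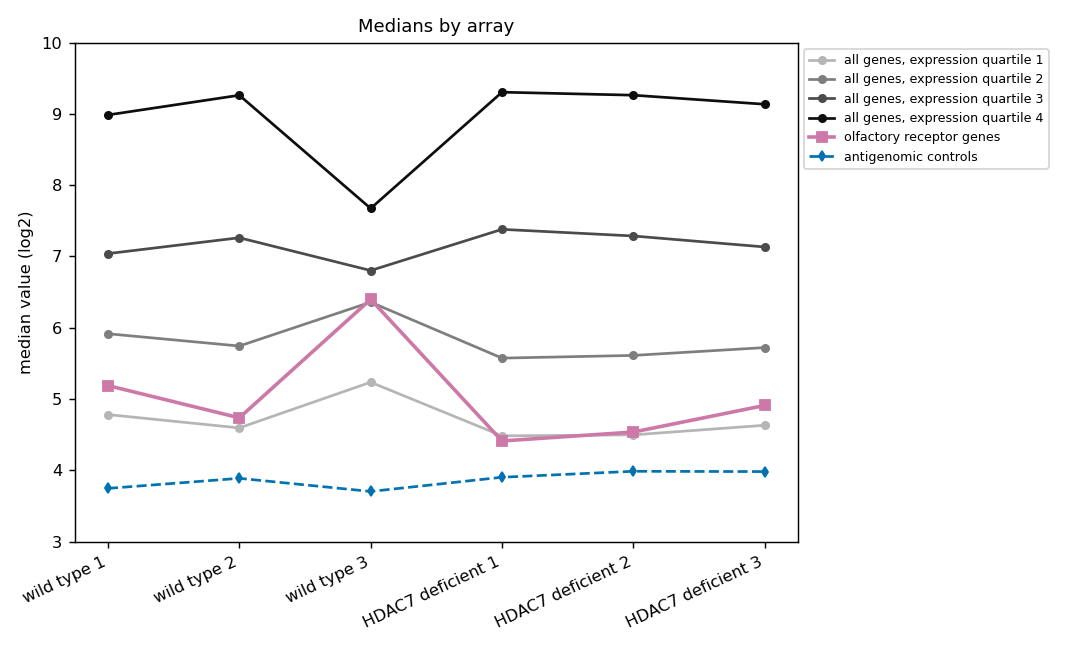
Median log2 value (vertical axis) on each of the 6 arrays (horizontal axis) of the 39 receptor genes (pink squares), of all genes in each quartile of mean expression (grey to black) and of the antigenomic controls (blue diamonds, dashed). On wild-type replicate 3 the receptor median (6.40) and the quartile 1 and 2 medians (5.24 and 6.36) are at their highest and the quartile 4 median (7.67) is at its lowest.

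Olfr70 had the clearest difference between groups. It read 4.85, 4.76 and 5.11 in wild type and 4.01, 4.03 and 4.06 in HDAC7 deficient. The groups were apart by far more than the spread within either, and the 3 HDAC7-deficient values lay within 0.105 of the antigenomic level of their arrays. Its difference was -0.88 ± 0.14 (SE), with a limma adjusted p of 0.377, and -0.77 ± 0.10 without wild-type replicate 3, with an adjusted p of 0.0791. Over all alternatives other than array weights, its adjusted p ran from 0.0791 to 0.676 and its difference from -0.69 to -1.07. Olfr71, its neighbour on the chromosome, read 4.53, 4.39 and 4.50 in wild type and 4.14, 4.08 and 4.26 in HDAC7 deficient. These groups did not overlap either, and the difference was -0.31 ± 0.12 (adjusted p = 0.377 in limma).

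The other 3 receptors with an unadjusted p under 0.05 had a wild-type spread set largely by replicates 1 and 3. Olfr16, known as MOR23 and as a receptor for the odorant lyral, read 6.34, 5.08 and 7.93 in wild type and 4.47, 4.54 and 5.31 in HDAC7 deficient. Wild-type replicate 2 lay below the highest HDAC7-deficient array, so the groups overlapped. Its difference was -1.68 ± 0.68, with an adjusted p of 0.377 (limma), and -0.93 without wild-type replicate 3.

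Olfr690 read 6.36, 4.92 and 7.37 in wild type against 4.42, 4.58 and 5.0. Again wild-type replicate 2 lay inside the HDAC7-deficient range. Its difference was -1.56 ± 0.57 (limma adjusted p = 0.377), and -0.98 without wild-type replicate 3. Olfr544, a receptor for azelaic acid that has been studied in fat and pancreas, read 5.86, 5.44 and 6.66 in wild type against 4.83, 5.07 and 5.54. Its groups overlapped by 0.10, at wild-type replicate 2 and HDAC7-deficient replicate 3. Its difference was -0.84 ± 0.35 (limma adjusted p = 0.377), and -0.50 without wild-type replicate 3.

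Olfr140, Olfr701, Olfr157, Olfr159, Olfr155, Olfr66, Olfr544 and Olfr976 lay at least 0.92 above the antigenomic level on every array. That margin also holds the brightness of each probe set's own sequence, so it does not place their expression above that of other receptors. Olfr140 read 6.26, 5.75 and 6.74 in wild type and 5.69, 5.71 and 5.86 in HDAC7 deficient, a difference of -0.50 ± 0.28, or -0.25 without wild-type replicate 3. Wild-type replicate 2 lay between HDAC7-deficient replicates 2 and 3. Olfr701 read 6.45, 6.01 and 7.06 in wild type and 5.61, 5.88 and 6.24 in HDAC7 deficient, a difference of -0.60 ± 0.32, or -0.32 without wild-type replicate 3. Its dimmer probe set gave a difference of -0.29, less than the -0.60 of the brighter one.

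Olfr66 read 5.94, 5.35 and 6.81 in wild type and 5.22, 5.32 and 5.70 in HDAC7 deficient, a difference of -0.62 ± 0.37, or -0.23 without wild-type replicate 3. Its other probe set gave -1.07, so the probe sets differed in size and not in direction. Olfr976 read 5.04, 4.97 and 5.54 in wild type and 4.90, 4.91 and 4.94 in HDAC7 deficient. Its groups did not overlap, although wild-type replicate 2 cleared the highest HDAC7-deficient array by only 0.03. The difference was -0.27 ± 0.19 (limma adjusted p = 0.423), and -0.09 without wild-type replicate 3.

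The receptors with the widest spread over the 6 arrays were Olfr480, Olfr16, Olfr112 and Olfr65. Olfr480 read 6.28, 4.32 and 7.93 in wild type and 4.31, 3.94 and 4.85 in HDAC7 deficient. Its lowest reading, on HDAC7-deficient replicate 2, was at the antigenomic level, and its highest was on wild-type replicate 3. Its wild-type mean was 6.18 ± 1.81 (SD, n = 3) and its difference -1.81 ± 0.83 (limma adjusted p = 0.377), or -0.93 without wild-type replicate 3. Olfr112 read 6.05, 4.89 and 8.09 in wild type and 4.62, 4.88 and 5.66 in HDAC7 deficient, with a difference of -1.29 ± 0.76, or -0.42 without wild-type replicate 3. Olfr65 read 4.87, 4.28 and 7.34 against 4.24, 4.21 and 4.58, and its difference of -1.15 ± 0.73 was -0.23 without wild-type replicate 3. For all of these the wild-type arrays disagreed with each other by more than the group means differed.

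Several receptors with known ligands or known neurons followed much the same order of arrays. Olfr2, known as I7 and as an octanal receptor, read 5.55, 4.87 and 6.96 in wild type and 4.61, 4.63 and 5.28 in HDAC7 deficient (difference -0.96 ± 0.51). Olfr17, known as P2 from studies of axon targeting, read 5.37, 4.56 and 6.61 against 4.41, 4.33 and 4.69 (-1.04 ± 0.48). Olfr73, known as mOR-EG and as a eugenol receptor, read 5.50, 4.35 and 7.16 against 4.38, 4.52 and 4.64 (-1.16 ± 0.63). In each of these wild-type replicates 1 and 3 were above every HDAC7-deficient array and wild-type replicate 2 was not. The differences without wild-type replicate 3 were -0.37 for Olfr2, -0.49 for Olfr17 and -0.41 for Olfr73.

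Olfr160, known as M72 and as an acetophenone receptor, read 5.02, 4.46 and 6.71 in wild type against 4.28, 4.34 and 4.81 (-0.91 ± 0.54, and -0.26 without wild-type replicate 3). Olfr78, a receptor for short-chain fatty acids also known from the kidney and the carotid body, read 4.43, 4.18 and 4.55 against 4.14, 4.19 and 4.28, and stayed within 0.84 of the antigenomic level on every array. Its difference was -0.18 ± 0.14, or -0.10 without that array. Olfr15 read 4.37, 4.29 and 5.0 against 4.16, 4.12 and 4.73, with a difference of -0.22 ± 0.25 that was 0.01 without wild-type replicate 3. The limma adjusted p of these 6 receptors ran from 0.377 to 0.570. Olfr151 and Olfr56 were not analysed here.

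The other 12 receptors, Olfr49, Olfr64, Olfr68, Olfr69, Olfr74, Olfr154, Olfr288, Olfr315, Olfr558, Olfr658, Olfr672 and Olfr1264, had differences from -1.36 (Olfr1264) to -0.17 (Olfr315) over all arrays and from -0.76 (Olfr1264) to -0.03 (Olfr64) without wild-type replicate 3. The groups overlapped for each of the 12, and wild-type replicate 3 was the highest array for each. Olfr1264 read 6.15, 4.55 and 7.12 in wild type and 4.37, 4.59 and 4.79 in HDAC7 deficient. Wild-type replicate 2 lay inside the HDAC7-deficient range. Olfr558, like Olfr78 a receptor for short-chain fatty acids, read 5.44, 4.91 and 6.19 against 4.78, 4.77 and 5.23 (-0.59 ± 0.33, limma adjusted p = 0.388, and -0.25 without wild-type replicate 3). Olfr74 read 3.89, 3.70 and 5.11 against 3.66, 3.76 and 3.68, so that wild-type replicate 3 was 1.41 above the antigenomic level, wild-type replicate 1 was 0.14 above it and the other 4 arrays were below it. Olfr315 stayed between 3.73 and 4.16 on all 6 arrays.

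Mouse olfactory receptors divide into class I, the family shared with fish, and class II, the larger terrestrial family. The 12 class I receptors had a median difference of -0.67 and the 27 class II receptors of -0.60. Without wild-type replicate 3 these medians were -0.23 and -0.32, with 12 of 12 class I and 25 of 27 class II receptors lower. The test of the difference between the classes was not made.

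By position, 37 of the 39 receptors had another receptor gene as a neighbour in the reference gene table, 25 of them on both sides. Olfr70, Olfr71 and the receptors Olfr159, Olfr156, Olfr157 and Olfr155 follow each other there, with Hrct1 and Spaar in between. The last 4 belong to the OR37 group, whose neurons lie in a central patch of the olfactory epithelium. All 6 were lower, with a median difference of -0.50 over all arrays and -0.33 without wild-type replicate 3. The groups did not overlap for 3 of them, Olfr70, Olfr71 and Olfr159, and in that direction for 16.8% of all genes. This neighbourhood was picked out with these values known.

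Within the OR37 group, Olfr159 read 6.01, 5.71 and 6.40 in wild type and 5.39, 5.56 and 5.66 in HDAC7 deficient, and its groups were parted by 0.05. Olfr157 read 6.25, 5.82 and 6.40 against 5.47, 5.55 and 5.99. Olfr155 read 5.64, 5.47 and 6.24 against 5.42, 5.43 and 5.62. For both, wild-type replicate 2 lay inside the HDAC7-deficient range. Olfr156 read 5.19, 4.62 and 5.50 against 4.35, 4.38 and 4.97, with the same overlap. The differences were -0.50 ± 0.22, -0.49 ± 0.24, -0.29 ± 0.24 and -0.54 ± 0.28 for Olfr159, Olfr157, Olfr155 and Olfr156, with limma adjusted p between 0.377 and 0.456. They were -0.32, -0.37, -0.07 and -0.34 without wild-type replicate 3.

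**Figure D5:**
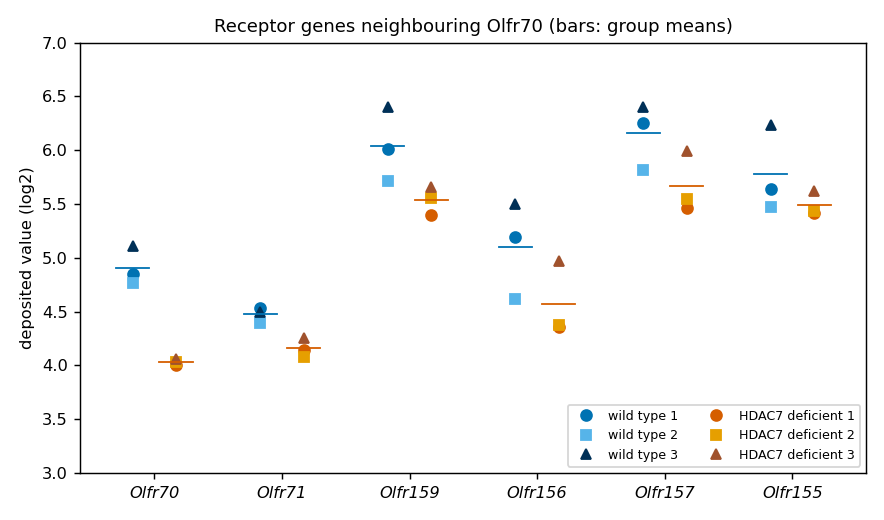
Deposited log2 value (vertical axis) of the 6 neighbouring receptor genes around Olfr70 (horizontal axis) on each wild-type (blue) and HDAC7-deficient (orange and brown) array, with bars at the group means. Olfr70 shows the clearest separation, 4.76 to 5.11 against 4.01 to 4.06, and Olfr155 to Olfr157 overlap.

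The 5 genes around these receptors that are not receptors had values of the same sign as deposited, but Reck turned to higher after quantile normalization, after median centring and without wild-type replicate 3 (0.01). Tmem8b, next to Olfr70, had a difference of -0.48 and Spaar of -0.56, both without overlap of the groups, as for 16.8% of all genes. Fam221b had -0.41, Hrct1 -0.33 and Reck, beyond Olfr155, -0.02. None passed an adjusted p of 0.05 in limma. Spaar alone of these 5 was lower at an unadjusted p under 0.05 in limma, as were 9.14% of all genes.

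The letters upstream of Olfr70 are shown, with those of Olfr156 and Olfr67 for motifs commoner upstream of receptor genes than of all genes. The letters are the 250 bases before the gene start in RefSeq's GRCm38.p6, on the minus strand, written 5′ to 3′: Olfr70 at chr4:43700808-43701057, Olfr156 at chr4:43821434-43821683 and Olfr67 at chr7:103791831-103792080. Capitals mark a homeodomain core (TAATTA) in Olfr156 and a TATA box (TATAAA) in Olfr67, and Olfr70 holds neither.
Olfr70: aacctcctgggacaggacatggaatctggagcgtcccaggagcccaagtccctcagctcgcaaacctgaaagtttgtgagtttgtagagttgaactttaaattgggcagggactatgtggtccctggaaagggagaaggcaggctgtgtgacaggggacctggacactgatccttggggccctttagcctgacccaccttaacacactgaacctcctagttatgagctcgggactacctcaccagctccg
Olfr156: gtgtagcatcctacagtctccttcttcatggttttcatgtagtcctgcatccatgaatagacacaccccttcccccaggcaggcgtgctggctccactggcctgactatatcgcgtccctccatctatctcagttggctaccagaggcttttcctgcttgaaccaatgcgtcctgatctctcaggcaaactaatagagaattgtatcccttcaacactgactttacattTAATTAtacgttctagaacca
Olfr67: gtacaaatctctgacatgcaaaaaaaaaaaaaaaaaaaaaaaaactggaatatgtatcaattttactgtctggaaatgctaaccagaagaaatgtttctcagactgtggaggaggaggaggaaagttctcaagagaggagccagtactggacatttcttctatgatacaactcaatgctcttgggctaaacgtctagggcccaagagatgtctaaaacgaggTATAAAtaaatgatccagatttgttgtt

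A window was found for 30 of the 39 receptors, 31 windows in all, and not for the other 9. The core motif of the early B cell factor family (TCCC, any 2 bases, then GGGA) was searched because Ebf1 is both a B cell factor and a member of the family that binds receptor promoters in the nose. On both strands it was in 0 of the 31 windows, in 0.423% of 945 receptor windows and in 0.779% of all 32851 windows. TAATTA was in 2 of 31 (Olfr156 and Olfr68), 18.1% of receptor windows and 4.84% of all windows. TATAAA was in 10 of 31, 39.4% of receptor windows and 12.4% of all windows. The last 2 motifs were chosen after values had been seen. The GC content of the printed windows is 54.4% for Olfr70, 47.2% for Olfr156 and 36.4% for Olfr67, and the median was 40.8% over the 31 windows, 34.0% over receptor windows and 52.4% over all windows. In 9 of the 31 the gene model starts at the ATG, so the window precedes the coding start and the transcript start is not annotated. A match of these letters is not a bound site.

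Around the beta-globin genes, Olfr69, Olfr68 and Olfr67 lie on one side and Olfr66, Olfr64 and Olfr65 on the other. All 6 were lower, with a median difference of -0.67 over all arrays and -0.23 without wild-type replicate 3. Olfr67 read 4.42, 4.15 and 6.21 in wild type and 4.12, 3.96 and 4.06 in HDAC7 deficient, and its groups did not overlap (-0.88 ± 0.51, limma adjusted p = 0.389). Wild-type replicates 1 and 2 lay within 0.68 of the antigenomic level. Of the beta-globin genes between them 3 were measured. Hbb-y read 5.67, 5.43 and 6.16 in wild type and 5.44, 5.56 and 5.27 in HDAC7 deficient (-0.33), and Hbb-bh1 read 4.65, 4.40 and 5.04 against 4.35, 4.48 and 4.73 (-0.18), both highest on wild-type replicate 3. Hbb-b2 read 7.37, 9.29 and 7.71 against 7.24, 8.95 and 8.59 (0.14), highest on wild-type replicate 2. With wild-type replicate 3 left out, the 3 differences were -0.12, -0.01 and -0.07, in the same order. After quantile normalization Hbb-bh1 turned to 0.05 and Hbb-b2 to -0.31, and after antigenomic centring Hbb-b2 was -0.04.

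Olfr1509, Olfr1508 and Olfr1507, the cluster of the receptor MOR28 (Olfr1507), had differences of -0.51, -0.93 and -0.14. Without wild-type replicate 3 they were -0.18, -0.04 and 0.23. Olfr1507 read 5.01, 4.74 and 5.99 in wild type and 4.81, 5.29 and 5.21 in HDAC7 deficient, so that only wild-type replicate 3 lay above the HDAC7-deficient arrays. Olfr749 was another receptor whose groups did not overlap, at 4.39, 3.95 and 5.77 against 3.89, 3.87 and 3.93. Wild-type replicate 2 was 0.03 above the highest HDAC7-deficient array. Its difference was -0.81 ± 0.43, and -0.28 without wild-type replicate 3.

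The genes that a receptor needs in a neuron were described beside the receptors, and none passed an adjusted p of 0.05 in limma. Of 20 olfactory signal transduction genes 18 were measured, 14 lower and 4 higher, with a median difference of -0.23, or -0.10 after median centring. Gnal, the G protein alpha subunit, read 8.45, 8.39 and 8.52 in wild type and 8.55, 8.71 and 8.63 in HDAC7 deficient, and Cnga2, a subunit of the channel, read 4.59, 4.22 and 5.93 against 4.16, 3.99 and 4.31. Gnal thus lay well above every antigenomic control and Cnga2 close to the antigenomic level on 5 arrays. Omp, the marker of mature olfactory neurons, read 6.91, 6.69 and 6.92 against 6.47, 6.51 and 6.50, without overlap (-0.35 ± 0.20, adjusted p = 0.393). Of 8 markers of mature olfactory neurons 7 were measured, and 2 lay above the highest antigenomic control on all arrays. The median of the 7 was 6.59 to 6.91 on the wild-type arrays and 6.43 to 6.51 on the others. Their part in the receptors' difference was not tested.

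Of 9 genes for receptor export to the membrane 6 were measured, 3 lower and 3 higher, or 4 and 2 without wild-type replicate 3. Reep1, which helps receptors reach the surface, read 6.06, 5.80 and 6.31 in wild type and 5.15, 4.58 and 4.61 in HDAC7 deficient, without overlap. Its difference was -1.28 ± 0.23 (limma adjusted p = 0.377). Rtp3 differed by -1.60 ± 0.62 (adjusted p = 0.377), with overlapping groups, and by -0.92 without that array. Of 19 factors of receptor choice and neuron identity 17 were measured, 13 lower and 4 higher, with a median of -0.27. It was -0.10 (12 and 5) without wild-type replicate 3 and -0.13 (11 and 6) after median centring. Ebf1 was high on every array, at 10.34, 10.42 and 10.48 in wild type and 10.47, 10.15 and 10.24 in HDAC7 deficient, and its difference was -0.13. Its relative Ebf2 read 5.36, 4.88 and 6.27 against 4.55, 4.55 and 4.68 (-0.91 ± 0.34, adjusted p = 0.377, and -0.53 without wild-type replicate 3).

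Of 25 heterochromatin factors, among them the histone methyltransferases and nuclear lamina proteins associated with silent receptor clusters, 20 were measured. In the values as deposited 4 were lower and 16 higher (median 0.34), after quantile normalization 8 and 12, and without wild-type replicate 3 10 and 10 (median 0.02). Hdac7 itself (0.97) is on this list and counts among the 16 higher. Of the 20 factors 5 were in quartiles 1 and 2. In quartiles 3 and 4, which held the rest, 33.9% and 10.4% of all genes were lower. Setdb1, a methyltransferase of histone H3 lysine 9, read 8.85, 9.11 and 6.72 in wild type and 9.05, 9.25 and 9.13 in HDAC7 deficient. Lbr, the lamin B receptor, was between 9.93 and 10.38 on all arrays. For Setdb1 only wild-type replicate 3 lay apart.

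Other chemosensory receptor families, which pro-B cells are not known for, mostly had differences of the same sign. In quartiles 1 and 2 lay 28 of the 29 vomeronasal type 1 and 5 of the 6 type 2 receptors. Of all genes 86.4% and 77.1% were lower in those quartiles. Of 29 vomeronasal type 1 receptors 28 were lower, with a median of -0.65, or -0.35 with 24 lower without wild-type replicate 3. They were lower for 25 of 29 after quantile normalization or median centring. All 6 vomeronasal type 2 receptors were lower (median -1.23), and 5 of 6 after quantile normalization. Without wild-type replicate 3 their median was -0.46. The trace amine receptor Taar1 read 4.69, 4.46 and 5.86 in wild type and 4.38, 4.18 and 4.28 in HDAC7 deficient (-0.72, or -0.30 without wild-type replicate 3). The medians of the 3 bitter taste (type 2) and the 3 sweet and umami taste (type 1) receptors were -0.83 and -0.18, or -0.30 and -0.10 without wild-type replicate 3. Median centring and quantile normalization each turned 1 of the type 1 receptors to higher, as did leaving out wild-type replicate 3. No member of these families passed an adjusted p of 0.05 in limma.

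Vmn1r148 stood out from its family, at 10.08, 7.80 and 11.45 in wild type and 6.30, 6.26 and 8.44 in HDAC7 deficient. Its difference was -2.78 ± 1.01 (limma adjusted p = 0.377), and -1.94 without wild-type replicate 3. Wild-type replicate 2 lay below HDAC7-deficient replicate 3, so the groups overlapped. The formyl peptide receptors, which hold both vomeronasal and phagocyte members, were mixed: Fpr-rs3 had a difference of -0.86 (-0.45 without wild-type replicate 3) and the phagocyte receptor Fpr2 of 0.95 ± 0.32 (adjusted p = 0.377). Of 17 Ms4a genes, a family with both olfactory and blood cell members, 12 were lower and 5 higher, but 8 and 9 after median centring.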

How the data were processed

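The submitters hybridised RNA of sorted pro-B cells to Affymetrix perfect-match mouse arrays after PCR amplification, per the labels' protocols. The values deposited are log2, 1 for each probe set on each array. How the authors normalized them is not given in the sources used here; their range showed the scale. Of 45141 probe sets 104 were controls. A platform annotation gave 1 symbol for 28898 of the others, several for 551 and none for 15588. Each of 17097 genes was read from its brightest probe set by mean over the 6 arrays.

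The groups were fitted in limma 3.58.1 under R 4.3.3 (group means, intensity trend, two-sided, Benjamini-Hochberg over all genes, adjusted p threshold 0.05). Differences are HDAC7 deficient minus wild type, ± standard error. The fit was tested on simulated data with independent noise and the same spread in both groups. That simulation held no shift of a whole array, so it does not cover the array differences described above. The labels call the arrays biological triplicates, and their number limits the precision. Members, gene lists and naming rules were chosen with earlier results of these data known. Named receptors were up to 8 per direction by smallest p under 0.05, 8 furthest above the antigenomic level, 4 with the largest SD and receptors known from the literature. Further genes were named after their values were seen: Olfr67, Olfr749, Olfr1507 to Olfr1509, Olfr156, the neighbours of Olfr70, the beta-globin genes, Omp, Setdb1, Ms4a1 and the 12 receptors described last among the family. Alternatives left out each array in turn, took the replicate number or the Xist division as a block, or used other scalings, probe set choices, filters, variance models and array weights. Arrays with the same replicate number were not taken as paired: the correlations of their deviations were 0.096, 0.208 and 0.476. Promoter windows came from RefSeq GRCm38.p6. Plots used matplotlib 3.10.9 (Python 3.11.15).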

Additional observations from a re-analysis of the deposited data

Results flagged for a closer look

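For 19 of the 39 receptors the difference between genotypes was unequal in the Xist-low and the Xist-high arrays, by the interaction of genotype with that division in limma at an adjusted p under 0.05, and 27.3% of all genes met the same threshold. All 39 receptors were lower in both divisions, with a median difference of -0.40 in the Xist-low arrays and -1.38 in the Xist-high arrays. The Xist-high division holds 1 wild-type array, replicate 3, and the Xist-low division holds 1 HDAC7-deficient array, replicate 1. Each of these arms is a single sample, assumed to vary like the others, and a division effect cannot be told apart from those single arrays. The count is given as a description, and nothing is read from it.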

How the results depend on the processing

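The 39 receptors gave 714 values under the alternatives, 709 with the direction reported and 5 opposite: Olfr15 (0.006) and Olfr1507 (0.23) without wild-type replicate 3 (their lowest values with 1 array left out were -0.41 and -0.39), and Olfr1507 without HDAC7-deficient replicate 1 (0.0091), after quantile normalization (0.0754) and with array weights (0.20). Many of these directions could not turn. The replicate block, the fit without the intensity trend and the filter on dim genes leave each difference as it was. The probe set choices could alter only the 3 receptors with more than 1 probe set. Values within the Xist-low arrays repeat those of the Xist block without wild-type replicate 3. The 709 is therefore not a measure of stability. The median difference ran from -0.96 to -0.26 with 1 array left out and was -1.38 within the Xist-high arrays. It was -0.53 after median centring and -0.85 after centring on the antigenomic level, where the all-gene median was 0.10 and -0.21. The count lower at an unadjusted p under 0.05 was 5, ran from 1 to 31 with 1 array left out, and was 32 with the Xist division as a block. It was 1 after quantile normalization (6.35% of genes), 9 after antigenomic centring (16.3%), 3 without the dimmest 25% of genes (12 receptors tested, 8.72%) and 2 without the intensity trend (7.04%). No receptor was left without the dimmest 50%. With the replicate block it was 21 (16.1% of genes), no receptor passed an adjusted p of 0.05, and 3 of 6 arrays correlated best with their own number. With array weights 36 receptors were called, but so were 63.9% of all genes. At an unadjusted p under 0.05 36 receptors were then lower, against 37.7% of genes, and 1 was higher. The weight of wild-type replicate 1 was 40500 against 0.0148 to 0.892, and the estimate stopped before convergence. The count above the antigenomic level on all arrays, 33, was 0 against its 95th percentile or the highest control. No depth exists for these arrays, and signal over background limits the dimmest receptors.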

Other observations

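The 2 receptor pseudogenes left out above ran in opposite directions. Olfr856-ps1 read 4.55, 5.50 and 4.90 in wild type and 6.85, 5.40 and 4.87 in HDAC7 deficient, a difference of 0.72 in which HDAC7-deficient replicate 1 alone lay above the wild-type arrays. Olfr75-ps1 read 6.29, 5.52 and 7.74 against 5.32, 5.29 and 6.09, a difference of -0.95 with the order of arrays seen in the receptors. Ms4a1, the B cell surface gene CD20, read 4.57, 5.35 and 11.35 in wild type and 5.15, 7.40 and 6.87 in HDAC7 deficient, so that wild-type replicate 3 was far above the other arrays.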
